A study of Homo sapiens with 4 samples.

Results

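The genes described here encode the superoxide dismutases SOD1, SOD2 and SOD3, catalase (CAT) and the peroxide-removing enzymes GPX1, GPX2, GPX3, GPX4, PRDX1 and PRDX2. Members were chosen by name, as all probes that are not control probes and whose gene name in the array files is one of these symbols. This gave 10 of 25992 gene names, 13 of 34127 probes and 31 of 43118 spots per array. Expression was measured in human proximal tubular cells (HPTCs) of the lines HK-2 and RPTEC/TERT1 on 1-colour Agilent arrays. All 4 arrays were of cells stimulated for 24 h with interleukin-1β (IL-1β, 10 ng/mL) together with empagliflozin (Empa, 500 nM), an inhibitor of the sodium-glucose transporter SGLT2, after 24 h without serum or supplements. Papillomavirus oncogenes (E6 and E7) immortalise the HK-2 line, and telomerase the RPTEC/TERT1 line. There were 2 arrays of each label, and they are written HK2-1 and HK2-2 for the replicates of HK-2 and RPTEC-1 and RPTEC-2 for those of RPTEC/TERT1. The values below are levels under the combined stimulus and no response to either agent, since arrays without it were not analysed here.

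Superoxide dismutases turn superoxide into hydrogen peroxide, with copper and zinc in the cytosol (SOD1) and outside the cell (SOD3) and with manganese in the mitochondrial matrix (SOD2). Catalase in peroxisomes, glutathione peroxidases and peroxiredoxins then reduce the peroxide, the latter families with electrons from glutathione or thioredoxin. Proximal tubular cells are rich in mitochondria and peroxisomes, and SOD2 is a known target of NF-κB, the transcription factor that IL-1β activates.

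Enzymes of 3 compartments differed most over the 4 arrays, the extracellular SOD3, the peroxisomal CAT and the mitochondrial SOD2, and all 3 were high on the same pair of arrays, 1 of each label. To show what lies before these genes, the 250 bases ahead of a gene start are printed for them and for GPX3, which ran the other way. The sequences are those of RefSeq on GRCh38.p14, written 5′ to 3′ on the strand of the gene, with GC boxes (GGGCGG or its reverse complement) and CCAAT boxes (CCAAT or its reverse complement) in capitals. Neighbouring boxes can overlap or touch. The SOD2 window is chr6:159693242-159693491 on the minus strand, 1 of 4 windows listed for SOD2. The SOD3 window is chr4:24795323-24795572, the CAT window chr11:34438684-34438933 and the GPX3 window chr5:151020341-151020590, all on the plus strand.
SOD2: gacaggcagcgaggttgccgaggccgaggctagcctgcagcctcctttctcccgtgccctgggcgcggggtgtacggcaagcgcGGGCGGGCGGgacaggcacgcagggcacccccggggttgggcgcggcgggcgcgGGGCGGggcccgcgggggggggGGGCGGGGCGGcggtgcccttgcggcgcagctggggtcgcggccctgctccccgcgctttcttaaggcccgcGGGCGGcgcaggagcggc
SOD3: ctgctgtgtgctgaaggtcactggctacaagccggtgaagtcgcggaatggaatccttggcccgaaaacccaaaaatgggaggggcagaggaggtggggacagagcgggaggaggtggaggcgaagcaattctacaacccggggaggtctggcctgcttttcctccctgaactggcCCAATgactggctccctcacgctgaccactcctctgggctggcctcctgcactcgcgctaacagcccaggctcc
CAT: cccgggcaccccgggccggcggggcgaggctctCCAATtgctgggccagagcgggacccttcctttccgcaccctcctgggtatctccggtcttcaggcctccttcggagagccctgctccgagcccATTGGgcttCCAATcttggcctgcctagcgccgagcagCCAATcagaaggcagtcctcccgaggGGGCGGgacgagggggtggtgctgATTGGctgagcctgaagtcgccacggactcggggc
GPX3: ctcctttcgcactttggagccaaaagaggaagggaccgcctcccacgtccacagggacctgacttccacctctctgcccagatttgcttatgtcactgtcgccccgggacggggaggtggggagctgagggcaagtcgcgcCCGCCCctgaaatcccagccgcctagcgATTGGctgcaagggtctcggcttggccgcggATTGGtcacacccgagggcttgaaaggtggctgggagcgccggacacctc

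The SOD2 window printed held 6 GC boxes and no CCAAT box at 80.8% G or C. The other SOD2 windows held 1, 4 and 1 GC boxes and 1, 0 and 3 CCAAT boxes. The SOD3 window held no GC box and 1 CCAAT box at 61.6%, and the CAT window held 1 GC box and 5 CCAAT boxes at 68.8%. The GPX3 window held 1 GC box and 2 CCAAT boxes at 64.4%. Windows were matched for 8 of the 10 members, 13 in all, of which 12 held a GC box and 8 a CCAAT box. SOD2 has 4 of these windows and GPX4 has 3, some of them overlapping, so by gene it was 7 of 8 with a GC box and 6 of 8 with a CCAAT box. Among all 35116 windows of the table, which also lists genes more than once, the shares of windows were 42.6% and 32%. On both strands TATAAA matched 0 of the 13 windows, against 10.7% of all windows, and the NF-κB site, searched by its usual degenerate form, matched 0 against 5.21%. TGACNNNGC, the core of the antioxidant response element, matched only in the GPX2 window, against 10.9% of all. A match is a stretch of letters and not a bound site, and its absence covers only these windows.

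Levels below are log2 of the processed spot signal over the 75th percentile of its array, so that 1 unit is a 2-fold difference and 0 is the 75th percentile. They compare arrays for 1 probe and do not rank probes or genes against each other. Signals were called well above background by the scanner software for 59.2% to 64.9% of spots per array, and 56 to 217 spots per array were marked as saturated. The methods describe the arrays of each condition as biological duplicates. The spread within a label is that between separate experiments only if the labels hold.

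The arrays resembled each other across their labels. Over 17928 genes, HK2-1 and RPTEC-2 had a Pearson correlation of 0.980, and HK2-2 and RPTEC-1 of 0.976. Arrays with the same label had 0.865 (HK-2) and 0.855 (RPTEC/TERT1). These values run across genes, and genes do not stand for replicates. The median absolute difference over the 10 enzyme genes was 0.21 and 0.24 in the pairs across labels, against 0.54 and 0.90 within the labels. Whether 2 of the arrays carry exchanged labels was not tested and cannot be settled from these files. Groups are named as labelled, each result is given by array, and every comparison of HK-2 with RPTEC/TERT1 below would change its meaning if labels were exchanged.

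**Figure D1:**
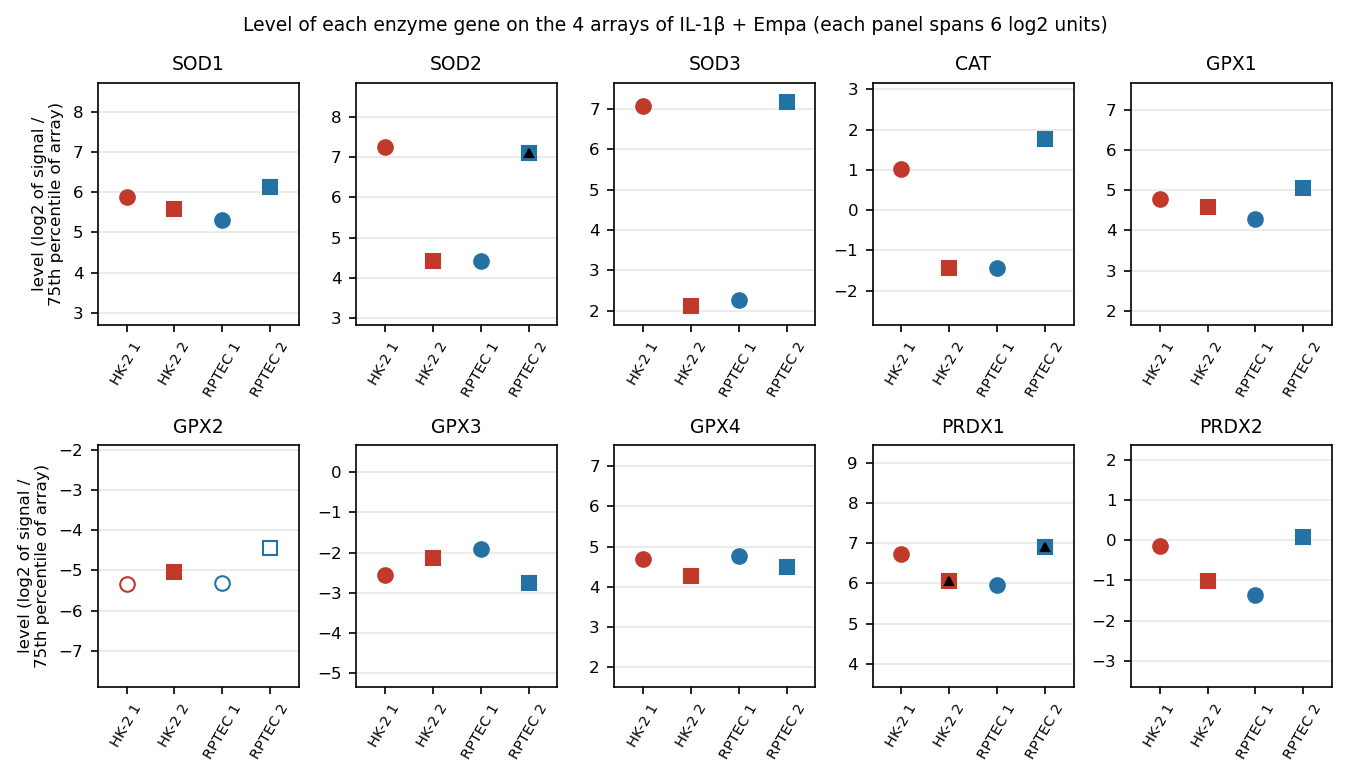
Level of each of the 10 enzyme genes (y axis, log2 of signal over the 75th percentile of the array) on the 4 arrays (x axis), with HK-2 in red, RPTEC/TERT1 in blue, circles for replicate 1 and squares for replicate 2. Each panel has its own y axis of 6 log2 units, open symbols are not well above background and black triangles mark a saturated spot. SOD3, CAT and SOD2 stand high on HK2-1 and RPTEC-2, with ranges of 5.06, 3.21 and 2.84.

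SOD3, the secreted dismutase that binds to the extracellular matrix, had the widest range of the members. Its single probe, A_23_P254741 (GRCh37 chr4:24802400-24802459), gave a level of 7.08 on HK2-1, 2.12 on HK2-2, 2.26 on RPTEC-1 and 7.18 on RPTEC-2. The 2 high arrays carry different labels, and the labelled groups overlap completely. The signal was 53330 and 62290 on the high arrays and 3249 and 2342 on the low ones, and the highest level was at least 33.4-fold the lowest. The fold is a lower limit, since on RPTEC-2 9 of the 67 pixels of the spot were saturated, although the spot itself was not marked as such. Of the 16473 genes tested, 309 (1.88%) had a wider range.

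SOD2, the manganese enzyme of the mitochondrial matrix, stood high on the same pair of arrays. Its probe, A_23_P134176 (GRCh37 chr6:160103590-160103649), gave a level of 7.26 on HK2-1, 4.42 on HK2-2, 4.42 on RPTEC-1 and 7.10 on RPTEC-2. Both high values are limited by the scanner. On RPTEC-2 the spot was marked as saturated, with 61 of 66 pixels at the limit, and on HK2-1 it was not marked but 24 of 62 pixels were. The highest level was therefore at least 7.14-fold the lowest. The low arrays had no saturated pixel, at signals of 16030 and 10460.

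SOD1, the abundant cytosolic dismutase, varied less. Its probe, A_23_P154840 (GRCh37 chr21:33040890-33040949), gave a level of 5.87 on HK2-1, 5.59 on HK2-2, 5.29 on RPTEC-1 and 6.12 on RPTEC-2, with no saturated pixel. Before scaling the signal was 23020 on HK2-1 and 35920 on HK2-2, so the order of these arrays rests on the scaling. The range was 0.83, a 1.78-fold difference, and 63.2% of the genes tested had a wider one. With other processing of the 4 arrays the range ran from 0.25 (quantile normalization) to 1.30 (normexp). The arrays of both labels overlap.

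CAT, which splits hydrogen peroxide in peroxisomes, was read by 10 spots of 1 probe on every array, so that its spread within an array could be set against the differences between arrays. The probe, A_23_P105138 (GRCh37 chr11:34493034-34493093), gave a level of 1.03 ± 0.10 (SD over 10 spots) on HK2-1, -1.43 ± 0.16 on HK2-2, -1.44 ± 0.16 on RPTEC-1 and 1.76 ± 0.051 on RPTEC-2. Spots of 1 array share its RNA and hybridisation and are no replicates of a condition. The lowest and the highest array differed 9.23-fold, and the gap between the high and the low pair was many times the SD over spots. The 2 low arrays differed by 0.0096, and the 2 high arrays by 0.74.

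**Figure D2:**
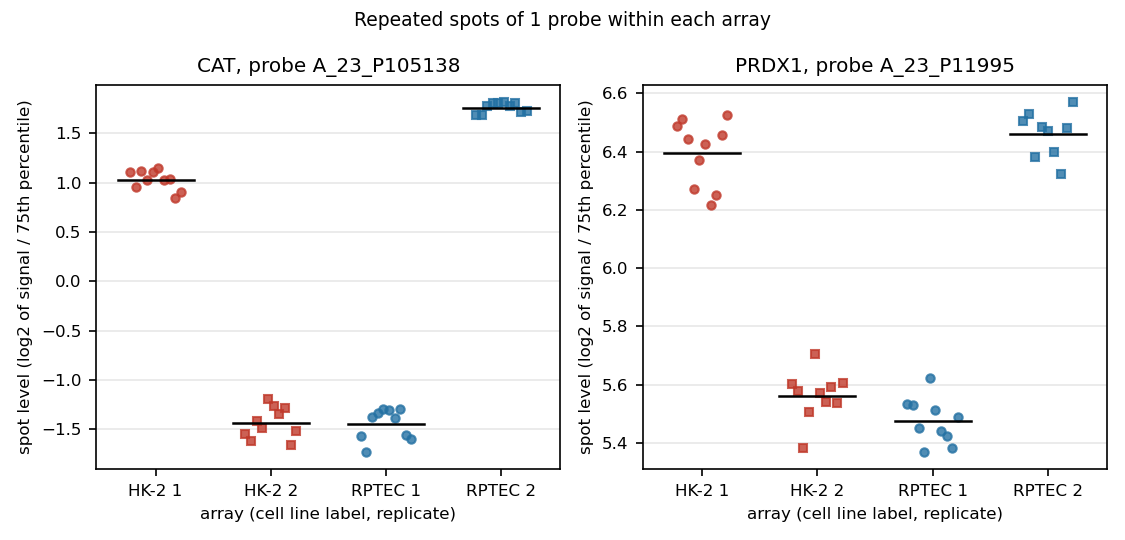
Level of each repeated spot (y axis, log2 of signal over the 75th percentile) of 1 CAT probe and 1 PRDX1 probe on the 4 arrays (x axis), without spots marked as outliers, with the mean over spots as a black line. For both probes all spots of HK2-1 and RPTEC-2 lie above all spots of the other arrays, with CAT means of 1.03 and 1.76 against -1.43 and -1.44.

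PRDX1, a cytosolic peroxiredoxin that thioredoxin recycles, was measured by 2 probes. The probe with 10 spots, A_23_P11995, lies at GRCh37 chr1:45980295-45980589, where its 60 bases span 295 bases of the genome, and gave 6.40 on HK2-1, 5.56 on HK2-2, 5.48 on RPTEC-1 and 6.46 on RPTEC-2. On the last array 1 of its spots was marked as an outlier and left out, and the SD over spots was 0.078 to 0.11. The second probe, A_33_P3377199 (GRCh37 chr1:45976740-45976799), gave 7.06, 6.57, 6.43 and 7.35 in the same order of arrays. It was saturated on HK2-2 (32 of 63 pixels) and on RPTEC-2 (59 of 64 pixels), so both of those values are lower limits. Its place of HK2-2 below HK2-1 is thus not fixed. The probe with 10 spots, which had no saturated pixel, placed both HK2-1 and RPTEC-2 above the other arrays with the scaling used here. Before scaling its signal was 33210 on HK2-1 and 35370 on HK2-2, so the order of HK2-1 and HK2-2 rests on the scaling. The gene level placed HK2-1 and RPTEC-2 above the other arrays in 5 of 7 ways of processing. In the other 2, HK2-2 lay above HK2-1. The gene level, which includes the limited values, had a range of 0.95.

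PRDX2, the peroxiredoxin known from red cells and neurons, ran with the wide members at a smaller size. Its probe, A_24_P168416 (GRCh37 chr19:12911978-12912037), gave -0.13 on HK2-1, -1.01 on HK2-2, -1.36 on RPTEC-1 and 0.077 on RPTEC-2. Before scaling its signal was 358.8 on HK2-1 and 371.7 on HK2-2, so the order of these arrays rests on the scaling. Its range of 1.44 is a 2.71-fold difference, and 32.6% of genes had a wider one.

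Among the glutathione peroxidases, which reduce peroxides with glutathione and carry selenocysteine in GPX1 to GPX4, none had a range over 1 with the scaling used here. With normexp correction all 4 did, and with the deposited log2 values GPX2 (1.98) and GPX3 (1.01) did. The medium listed for RPTEC/TERT1 held sodium selenite, and that for HK-2 lists none beside its serum. Both lines then spent the starvation and the stimulation without serum or supplements, and the part of the earlier medium was not tested. GPX1, the cytosolic and mitochondrial form, was measured by A_33_P3239849 (GRCh37 chr3:49394925-49394984) at 3.94, 3.71, 3.38 and 4.19, in the order HK2-1, HK2-2, RPTEC-1 and RPTEC-2. Its second probe, A_33_P3354322 (GRCh37 chr3:49394608-49394667), gave 5.62, 5.43, 5.16 and 5.91 in the same order. The probes ordered the arrays alike, and the gene level had a range of 0.77. Before scaling both probes read higher on HK2-2 (9782 and 32190) than on HK2-1 (6052 and 19310), so the order of these arrays rests on the scaling.

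GPX3, the form secreted into plasma and made largely by proximal tubular cells in the kidney, was lower on the arrays where SOD3 was high, in 5 of 7 ways of processing. Its probe A_23_P133474 (GRCh37 chr5:150407859-150407918) gave -1.88, -1.50, -1.24 and -2.06 in that order of arrays. A_33_P3369371 (GRCh37 chr5:150407032-150407091) gave -3.21, -2.78, -2.60 and -3.44. Both probes were lowest on RPTEC-2 and highest on RPTEC-1, with a gene range of 0.83.

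GPX4, which reduces lipid hydroperoxides in membranes and restrains ferroptosis, had the narrowest range of the 9 members tested in 6 of 7 ways of processing, with quantile normalization as the exception, where SOD1 had (0.25 against 0.71). Its probe, A_33_P3309662 (GRCh37 chr19:1105673-1105732), gave 4.69 on HK2-1, 4.28 on HK2-2, 4.76 on RPTEC-1 and 4.50 on RPTEC-2. Before scaling its signal was 10160 on HK2-1 and 14490 on HK2-2, so the order of these arrays rests on the scaling. Its range was 0.49, or 1.40-fold, and both replicate 1 arrays lay above both replicate 2 arrays in 5 of 7 ways of processing, while in the other 2 the arrays labelled RPTEC/TERT1 lay above those labelled HK-2. Of all genes tested, 85.1% had a wider range.

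GPX2, the form of the gut epithelium, was well above background on HK2-2 alone, with a signal of 22.8 and a level of -5.04 (A_23_P3038, GRCh37 chr14:65406396-65406455). On HK2-1, RPTEC-1 and RPTEC-2 the spot was not well above background, at signals of 9.81, 12.4 and 19.6 and levels of -5.33, -5.30 and -4.45. The scaled level was thus highest on RPTEC-2, an array where the spot failed the background call, and the order of these dim values is not fixed. GPX2 was the only member that did not enter the tests, which used genes well above background on at least 2 arrays.

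Whether the enzymes differ between the labelled cell lines was tested with limma over 16473 genes, 9 of them members. After Benjamini-Hochberg adjustment at 0.05, limma called 0 of 9 members and 0 of all genes (0%), and at an unadjusted p under 0.05 it called 0 of 9 members and 23 genes (0.140%). Every member's adjusted p in limma was 1. The mean of SOD3 was 4.60 ± 3.51 (SD, n = 2) under the label HK-2 and 4.72 ± 3.48 (SD, n = 2) under RPTEC/TERT1, a difference of -0.12 with a standard error of 2.43. For SOD2 the difference was 0.078 with a standard error of 1.40, for CAT -0.36 with 1.44 and for GPX4 -0.15 with 0.45. Differences of several fold for SOD2, SOD3 and CAT lie within these errors, so the test does not show that the lines are alike.

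The replicate numbers gave opposite differences. HK-2 minus RPTEC/TERT1 was 4.82 in replicate 1 and -5.06 in replicate 2 for SOD3, 2.84 and -2.68 for SOD2, and 2.47 and -3.20 for CAT. It was 1.23 and -1.08 for PRDX2. The difference in SOD1, GPX1, GPX3 and PRDX1 also changed sign between the numbers, and only in GPX4, at -0.072 and -0.22, did it keep its sign with the scaling used here. Opposite signs were found in 8 of 9 members and in 85.1% of all genes tested. With normexp background correction they were found in 4 of 9 members and 71.0% of genes, since SOD1, GPX1, GPX3 and PRDX1 then kept their sign too. Replicate 1 arrays were scanned on one day and replicate 2 arrays on another, so number and scan day cannot be told apart, and every array had its own slide.

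**Figure D3:**
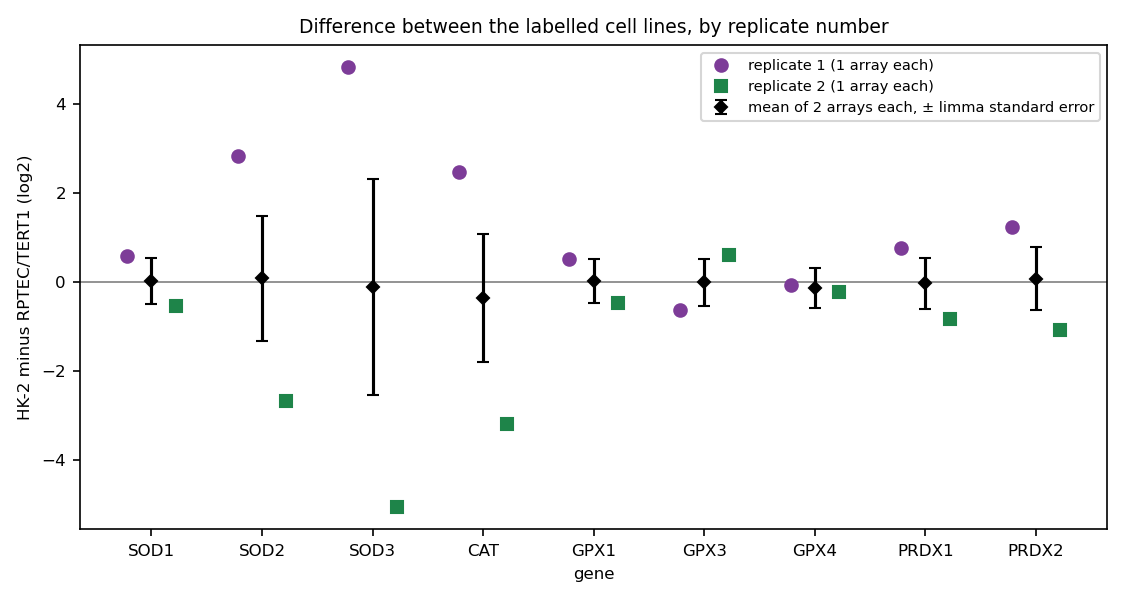
Difference of HK-2 minus RPTEC/TERT1 (y axis, log2) for the 9 enzyme genes tested (x axis), for replicate 1 (circles), replicate 2 (squares) and the mean of both arrays per label (diamonds, with the limma standard error as bars). In SOD3 the replicates gave 4.82 and -5.06, around a mean difference of -0.12.

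The 4 arrays can be divided into pairs in 3 ways. Between the labels, 0 of 9 members had arrays that did not overlap, against 7.18% of all genes (4.36% higher in HK-2 and 2.81% lower). Between the replicate numbers it was 1 of 9, GPX4, higher in replicate 1, against 20.6% (9.76% higher and 10.8% lower). Between HK2-1 with RPTEC-2 and the other pair it was 8 of 9, with 7 higher and GPX3 lower, against 72.0% of all genes (38.8% higher and 33.2% lower). The last share in members is near that of all genes, and this division was noticed in the data and is not one of the study's groups. SOD2, SOD3, CAT and PRDX2 kept it in all 7 ways of processing that kept the 4 arrays. GPX1, GPX3 and PRDX1 kept it in 5 and SOD1 in 4, and in the others these 4 genes were divided by replicate number instead.

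A range above 1 was found in 4 of 9 members, SOD2, SOD3, CAT and PRDX2, against 52.9% of all genes, and a range above 2 in 3 of 9 against 18.1%. The median range of the members was 0.95, beside 1.05 over all genes tested.

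**Figure D4:**
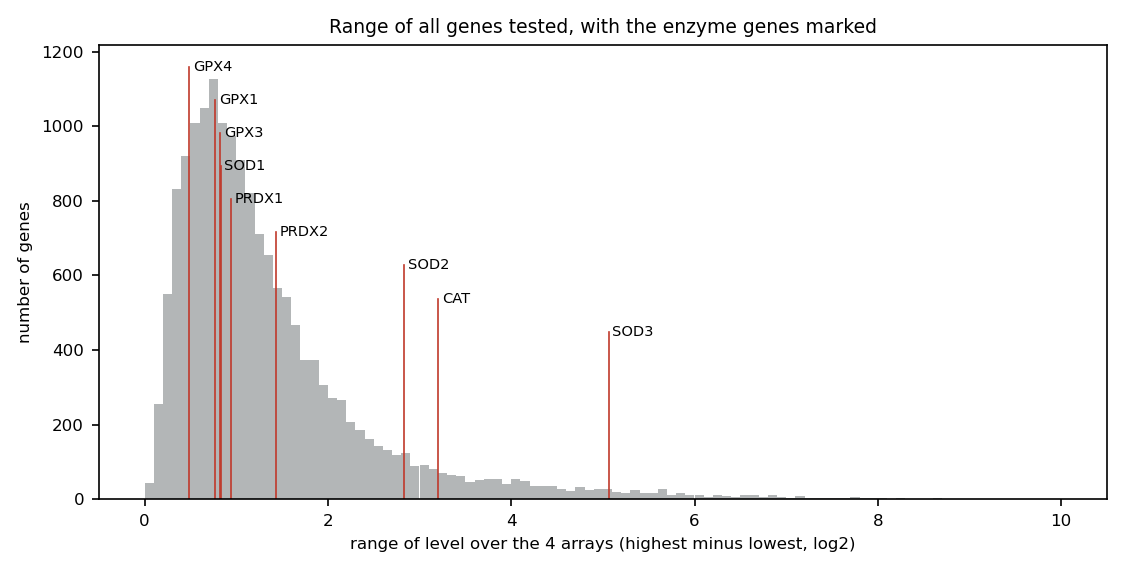
Number of genes (y axis) by the range of their level over the 4 arrays (x axis, highest minus lowest, log2) for 16473 genes tested, with the 9 enzyme genes marked by red lines whose heights carry no value. GPX4 lies at 0.49, PRDX2 at 1.44, and SOD2, CAT and SOD3 at 2.84, 3.21 and 5.06.

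Genes whose levels followed SOD2 most closely, by the root mean square distance of levels centred on each gene, were CXCL2 (0.036), TMIE (0.052) and MGAT4A (0.059) among 13602 genes well above background and unsaturated on all 4 arrays. CXCL2, a chemokine for neutrophils, had levels of 6.95, 4.21, 4.19 and 6.83 in the order HK2-1, HK2-2, RPTEC-1 and RPTEC-2. Nearest to SOD3 were SORL1 (0.050), a sorting receptor, SNPH (0.12) and POLR2L (0.12). SORL1 had levels of 0.042, -4.82, -4.69 and 0.13. These likenesses rest on 4 arrays that form 2 close pairs. The high levels of SOD2 on both arrays and of SOD3 on RPTEC-2 are lower limits, so the distances and the order of these genes hold only for the signals as read.

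Genes that make superoxide or peroxide, the substrates of the members, had a median range of 2.14 over the 10 of 21 that were tested. On no array were 11 of the 21 well above background. XDH, which makes superoxide while oxidising purines, had levels of 2.17 on HK2-1, -2.38 on HK2-2, -2.70 on RPTEC-1 and 2.01 on RPTEC-2, a 29.3-fold range. CYBA, the p22phox subunit of NADPH oxidases, had 4.82, 3.40, 3.31 and 4.88. Both were high on the arrays where SOD2, SOD3 and CAT were high. So were 6 of the 10 tested in all, and 38.8% of all genes tested. DUOXA1 and NCF1, with ranges of 6.39 and 4.83 but not well above background on every array, were instead higher on both replicate 2 arrays. In limma 0 of the 10 were called.

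Genes of thiol supply and recycling, which feed the peroxidases with glutathione and thioredoxin, had a median range of 0.81 over 18 of 20 tested. GLRX, a glutaredoxin, had levels of 4.51, 0.12, 0.15 and 4.46 in the same order of arrays, a 21.0-fold range. SESN2, a stress-induced sestrin, ran the other way at -1.68, 0.46, 0.93 and -1.53, and so did TXNIP, which binds and inhibits thioredoxin, at 2.21, 3.78, 3.32 and 2.78. Of the 18 genes, 7 were higher and 7 lower on HK2-1 and RPTEC-2 than on the other arrays, beside 38.8% and 33.2% of all genes tested. Between the labels limma called 0 of the 18.

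Among other peroxidases, 9 of 13 were tested, with a median range of 0.72. PRDX5, a peroxiredoxin of mitochondria and peroxisomes, had levels of 5.51, 3.26, 3.56 and 5.62 and so stood high where SOD2 and CAT did. PRDX3, the peroxiredoxin of the mitochondrial matrix, had 2.74, 2.76, 3.49 and 2.73, and GPX5 had -3.42, -2.67, -4.05 and -3.55. Of the 9 genes, 3 were higher and 3 lower on HK2-1 and RPTEC-2 than on the other arrays, beside 38.8% and 33.2% of all genes tested. In limma 0 of the 9 were called.

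Genes that supply metal or selenium had a median range of 0.84 over 15 tested of 16 listed. SEPHS2, which makes the selenium donor for selenocysteine, had 2.89, 0.37, 0.17 and 3.09, a 7.56-fold range. SEPSECS, the enzyme that completes selenocysteine on its tRNA, had -3.23, -4.80, -3.87 and -2.23, and PSTK, the kinase of the step before, had -0.96, 0.76, 0.04 and -0.84. SEPHS2 and SEPSECS were thus high, and PSTK low, on HK2-1 and RPTEC-2. With the scaling used here GPX3 was low and GPX1 high on these arrays, and GPX4 did not separate the pairs. Of the 15 genes, 9 were higher and 4 lower on HK2-1 and RPTEC-2 than on the other arrays, beside 38.8% and 33.2% of all genes tested. A relation of these genes to the glutathione peroxidases was not tested. In limma 0 of the 15 were called.

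**Figure D5:**
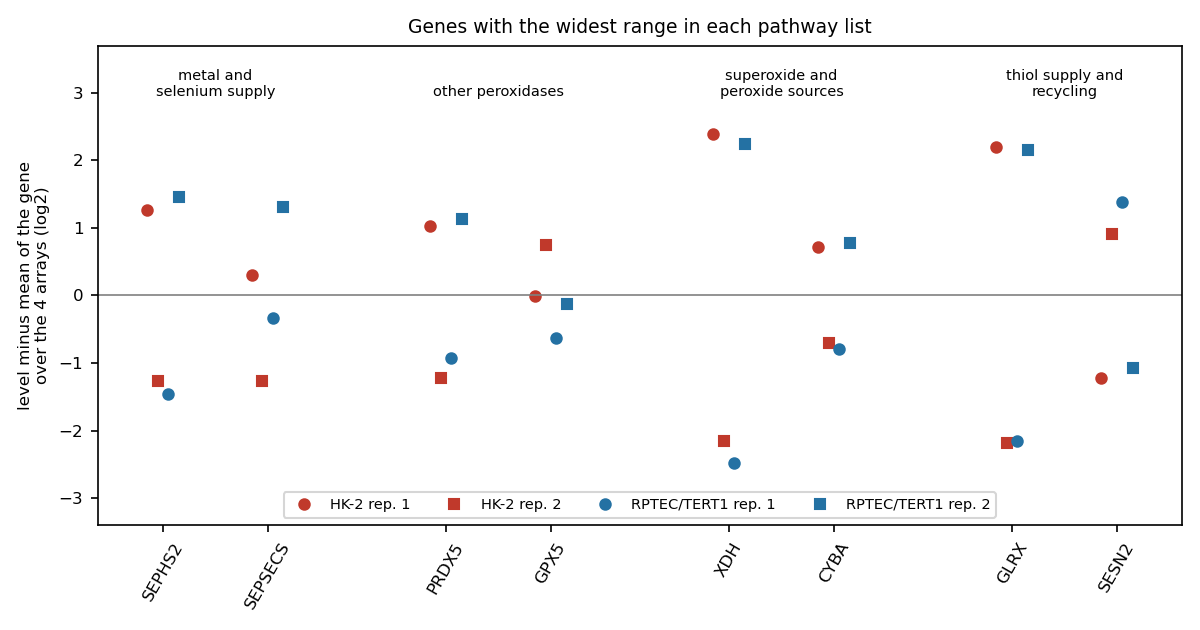
Level minus the gene's mean over the 4 arrays (y axis, log2) for the 2 genes with the widest range of each pathway list (x axis) among those well above background on all arrays, with HK-2 in red, RPTEC/TERT1 in blue, circles for replicate 1 and squares for replicate 2. XDH, GLRX, PRDX5 and SEPHS2 separate the same pairs of arrays as SOD3, and SESN2 lies the opposite way.

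Markers of the proximal tubule were present in part on every array. Of 13, 8 were well above background on all arrays and CUBN and SLC22A6 on none, while SLC34A1 was so on 1 array and AQP1 on 3. ANPEP, a brush border peptidase, was well above background only on HK2-1 and RPTEC-2, at 0.49 and 0.47, and at the floor of -5.37 on the other arrays. CDH2, the N-cadherin of proximal tubular cells, ran the other way, at -2.36 on HK2-1, 1.50 on HK2-2, 1.76 on RPTEC-1 and -2.48 on RPTEC-2. Of the 10 markers tested, 5 were higher and 4 lower on HK2-1 and RPTEC-2, the latter LRP2, GGT1, MME and CDH2. Over all genes tested the shares were 38.8% and 33.2%. The summed signal of the list, in units of the 75th percentile, was 20.8 and 20.0 on these arrays against 12.3 and 12.3 on HK2-2 and RPTEC-1. On HK2-1 and RPTEC-2 most of this sum came from KRT18 (levels of 3.27 and 3.40) and DPP4 (2.79 and 2.45). It thus does not weigh the markers equally and is no measure of tubular identity.

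Summed signals of the fibroblast, leukocyte and distal lists separated the same pairs, and those of the endothelial list did not. The fibroblast list had 3 of 5 genes well above background on HK2-2 and RPTEC-1, with summed signals of 1.92 and 1.46, against 1 and 0 genes and sums of 0.13 and 0.13 on HK2-1 and RPTEC-2. DCN and LUM made up most of this sum, and PDGFRB and COL1A2 were well above background on no array. Of the 8 distal tubule and collecting duct markers, 2 or 3 were well above background on each array, and SLC12A1 was so only where ANPEP was. The sums of this list were 0.98 on HK2-1 and 1.28 on RPTEC-2, against 0.72 on HK2-2 and 0.73 on RPTEC-1. SCNN1A of the same list ran the other way, at -4.84, -1.22, -1.28 and -4.11 in the order HK2-1, HK2-2, RPTEC-1 and RPTEC-2. Endothelial sums, which did not separate the pairs, were 0.20 to 0.39. Leukocyte sums were 0.94 on HK2-1 and 0.83 on RPTEC-2, against 1.29 on HK2-2 and 1.80 on RPTEC-1, but only 1 of the 3 leukocyte markers tested separated these pairs. The part of these markers in the levels of SOD2, SOD3 and CAT was not tested, and in a bulk measurement fewer cells of a type and less RNA per cell cannot be told apart.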

How the data were processed

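Expression was measured in HPTCs stimulated with IL-1β and Empa, with 2 arrays for each of the labels HK-2 and RPTEC/TERT1. Groups and replicate numbers follow the sample titles. The authors deposited, per array, spot intensities read by Agilent Feature Extraction 9.5.3.1, with background subtracted and, per the file headers, no scaling between arrays. A table of log2 values deposited beside them (array medians 6.72 to 8.33) served as an alternative only. Their ranks follow the spot signal minus local background, and their further centring or scaling stays unknown.

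Each processed signal was scaled to its array's 75th percentile over spots other than controls, log2-transformed and floored at -5.37, the highest over arrays of the dimmest signal well above background. Outlier spots were left out, saturated spots kept and spots of a probe averaged. A gene is the mean of its probes that pass this background call on 1 array or more. The labels were compared in limma 3.58.1 (R 4.3.3) over genes well above background on at least 2 arrays, with Benjamini-Hochberg adjustment. The fit was checked on simulated data with less spread within a label than SOD2, SOD3 and CAT had here. That check does not bear on the power in these data.

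The members and gene lists were chosen with earlier results of these data known. Genes named are the 10 members, the 3 of each pathway list with the widest range among those well above background on all arrays, the 3 nearest SOD2 and SOD3 over the 4 arrays, and proximal tubule markers missing on an array. A gene that this rule names is not reported here. The other marker genes, and DUOXA1 and NCF1 besides, were named after their values were seen. Alternatives were normexp background correction with an offset of 50, quantile normalization, the deposited log2 values, the brightest probe per gene, outlier spots kept, no common floor, other filters on dim probes, the replicate number as a block, and each array left out. Probe positions are those of the files (GRCh37). The number of arrays limits the precision.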

Additional observations from a re-analysis of the deposited data

Results flagged for a closer look

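The difference of HK-2 minus RPTEC/TERT1 had opposite signs in the 2 replicate numbers for 8 of the 9 members tested, and for 85.1% of all genes tested. With normexp correction this was 4 of 9 and 71.0%. It was 0.58 in replicate 1 and -0.54 in replicate 2 for SOD1, 2.84 and -2.68 for SOD2, and 4.82 and -5.06 for SOD3. For CAT it was 2.47 and -3.20. Among the peroxidases it was 0.51 and -0.48 for GPX1, -0.63 and 0.61 for GPX3, 0.77 and -0.84 for PRDX1, and 1.23 and -1.08 for PRDX2. Each of these values compares 1 array with 1 array, and the change of sign was not tested. Over all genes tested the median difference was 0.12 in replicate 1 and -0.076 in replicate 2.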

How the results depend on the processing

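Under all alternatives run, limma called 0 genes and 0 members, and 3 to 241 genes had an unadjusted p under 0.05. The fit with the replicate block called 0 genes, and 5 had an unadjusted p under 0.05. The deviations of same-numbered arrays from their label means had a correlation of -0.784, so the numbers were not taken to pair the arrays. With the crossed pairing as a block, chosen after seeing the data, it called 0, with 183 unadjusted. Normexp correction moved the median of all genes between the labels to 0.36 and the deposited log2 values to 0.21, from 0.017. The shift lay mainly with HK2-1. With normexp the median of HK2-1 minus HK2-2 became 0.99 instead of 0.062, and that of HK2-1 minus RPTEC-2 0.80 instead of 0. With the deposited log2 values these were 0.73 and 0.49. The median of HK2-2 minus RPTEC-2 moved less, from -0.076 to -0.27 and -0.23. With normexp the median difference of the members became -0.51 instead of -0.010 and their median range 1.45 instead of 0.95. Relative to the normexp shift of all genes, this median is lower still. Differences that changed sign were those of SOD1 (-0.44), SOD2 (-0.51), GPX1 (-0.46) and GPX3 (0.70) with normexp, of SOD1 (-0.046), SOD2 (-0.20), GPX1 (-0.079) and GPX3 (0.38) with the deposited log2 values, of GPX1 with its brightest probe (-0.013) and of PRDX1 with quantile normalization (0.048). The cause was not tested. Leaving out 1 array at a time, which leaves a lone array assumed to vary like the others, moved the median difference of the members from -0.51 (without RPTEC-1) to 0.44. By gene the differences then ran from -0.39 to 0.43 for SOD1, -1.34 to 1.50 for SOD2, -2.60 to 2.36 for SOD3, -1.97 to 1.24 for CAT, -0.37 to 0.40 for GPX1, -0.42 to 0.40 for GPX3, -0.35 to 0.061 for GPX4, -0.51 to 0.44 for PRDX1 and -0.65 to 0.79 for PRDX2. Saturation limits SOD2, SOD3 and PRDX1 from above, and dim signal limits GPX2.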
